A study of Mus musculus with 20 samples.

Results

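The 10 genes described here encode the switch that lets a cell pass from G1 into S phase: the D-type cyclins Ccnd1, Ccnd2 and Ccnd3, their kinases Cdk4 and Cdk6, the Cip/Kip inhibitors Cdkn1a, Cdkn1b and Cdkn1c, the pocket protein gene Rb1 and the transcription factor gene E2f1. They were listed by name as parts of this switch, with earlier results of these data known, and were 10 of the 48795 genes in the table, each present as 1 row. Whole hearts were taken from mouse embryos at E13.5, the stage at which septation is under way, and their poly(A) RNA was sequenced (RNAseq) in 4 groups of 5 libraries. Dp3Tyb embryos carry the duplication Dp(16Mir802-Zbtb21)3TybEmcf and Ts1Rhr embryos the duplication Dp(16Cbr1-Fam3b)1Rhr, both on mouse chromosome 16, and each strain was set beside its own wild-type (WT) littermates, all on the C57BL/6J background. Both duplications give 3 copies of Dyrk1a, a kinase gene, in every cell, and the study describes congenital heart defects in Dp3Tyb but not in Ts1Rhr embryos, although heart defects are noted for 2 of the 5 Ts1Rhr hearts (replicates 1 and 2), which were kept in 1 group by genotype. The question for these genes is whether their transcripts differ between mutant and WT hearts, since DYRK1A acts on the proteins of this switch.

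In G1, mitogen signals raise the D-type cyclins, which bind CDK4 or CDK6, and the kinase then phosphorylates RB1. Unphosphorylated RB1 holds E2F factors in check, and its phosphorylation frees them to switch on genes for DNA replication. The Cip/Kip proteins p21 (Cdkn1a), p27 (Cdkn1b) and p57 (Cdkn1c) bind cyclin-CDK complexes and restrain the cycle, while DYRK1A is known to phosphorylate D cyclins, which leads to their degradation, and p27. In the embryonic heart most cardiomyocytes still divide, and the cells leave the cycle around birth.

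The libraries held between 6.60 and 19.6 M reads, and 7 of the 20 stood apart by a mitochondrial read share above 10% (10.5 to 19.5%), while the other 13 held 4.85 to 7.17%. These 7 were replicate 5 of the WT littermates of Dp3Tyb (19.5%), replicate 5 of Dp3Tyb (15.5%), replicates 1, 2 and 4 of the WT littermates of Ts1Rhr and replicates 1 and 2 of Ts1Rhr, which are also the Ts1Rhr hearts noted with defects. The share and the defect label cannot be told apart in that group. Leaving out the 7 libraries leaves 4 hearts in each group of the Dp3Tyb cohort, 3 Ts1Rhr hearts and 2 of their littermates. The mean share in Dp3Tyb differed from that of its littermates by -0.38 percentage points (exact permutation test over all splits, 2-sided, p = 0.976) and in Ts1Rhr by -2.06 points (exact permutation test, p = 0.5), where the smallest p the splits allow is 0.0079. Dyrk1a checked the genotypes: its values did not overlap with those of the littermates in either strain (2403 to 3196 against 1692 to 2287 in the Dp3Tyb cohort, and 2413 to 2759 against 1739.5 to 2339 in the Ts1Rhr cohort). None of the 10 cardiomyocyte markers was at 0 in all libraries of a group, and their summed value ranged from 305520.0 to 523039 over the 20 libraries. Markers of lung and foregut stood out among the other cell types: Nkx2-1, a lung bud transcription factor gene, was at 0 in 3 WT littermates of Dp3Tyb and 38.3 and 43.3 in the other 2, against 10.2 to 49.9 in Dp3Tyb, 18.6 to 56.1 in the WT littermates of Ts1Rhr and 0 to 27.8 in Ts1Rhr. Whether lung tissue took part in any value below was not tested.

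All values are normalised read counts, which are reads divided by 1 size factor per library, and levels are compared between genes only after division by the length of the canonical transcript in kb. By this measure Cdkn1c was the most abundant of the 10, at 5368 ± 1322 per kb (SD, n = 20), and Rb1 the least abundant, at 100.02 ± 12.1 per kb. Ccnd3 (2030.3 ± 355 per kb) and Cdk4 (1890.1 ± 136) followed Cdkn1c and lay within 1 SD of each other, then came Ccnd2 (1395 ± 66.1) and Ccnd1 (548 ± 38.5), each apart from its neighbours by more than the larger SD. Cdkn1b (226 ± 36.4), Cdkn1a (195 ± 30.3) and E2f1 (167 ± 15.0) formed a run in which no neighbours differed beyond their spread, and Cdk6 (106 ± 6.45) could not be told from Rb1. This order held in the WT littermates of Dp3Tyb and in Dp3Tyb. In the WT littermates of Ts1Rhr, Cdk4 stood above Ccnd3 and Rb1 above Cdk6, and in Ts1Rhr, Cdkn1a stood above Cdkn1b, in each case between neighbours within 1 SD. Ccnd3 and Cdkn1a depend most on the transcript chosen, since their longest transcripts give 1062 and 91.4 per kb, which places Ccnd3 at rank 4 and Cdkn1a last.

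**Figure D1:**
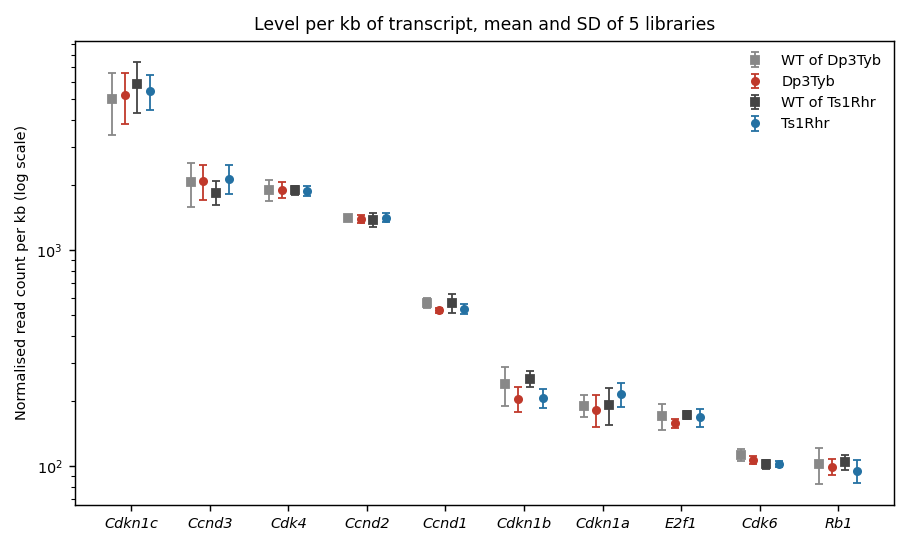
Normalised read count per kb of canonical transcript (vertical axis, log scale) of the 10 genes, ordered by their mean over 20 libraries; squares (WT) and circles (mutant) are means of 5 libraries and bars are SDs. Cdkn1c is highest in each of the 4 groups, between 4986 and 5862 per kb, and Rb1 and Cdk6 lie together at the bottom.

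Within families the division of transcripts was uneven. Ccnd3 gave 50.7 ± 4.64% of the D cyclin total per kb, Ccnd2 35.4 ± 3.39% and Ccnd1 13.9 ± 1.56% (SD, n = 20). Cdk4 made up 94.7 ± 0.65% of the summed kinase level per kb. Cdkn1c made up 92.5 ± 1.5% of the inhibitor level per kb, against 4.01 ± 0.79% for Cdkn1b and 3.50 ± 0.86% for Cdkn1a. With the lengths of the longest transcripts the order of the D cyclins turned, to 46.7 ± 3.10% for Ccnd2, 35.2 ± 4.11% for Ccnd3 and 18.05 ± 1.55% for Ccnd1. Cdkn1a then gave 1.73 ± 0.43% of the inhibitor level, while Cdkn1c (94.0 ± 1.18%) still led its family. The Cdk4 share could not change, since the canonical transcripts of Cdk4 (2081 bases) and Cdk6 (11657 bases) are also their longest. As whole hearts were sequenced, fewer cells of a type and less RNA per cell cannot be told apart in any of these levels.

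**Figure D2:**
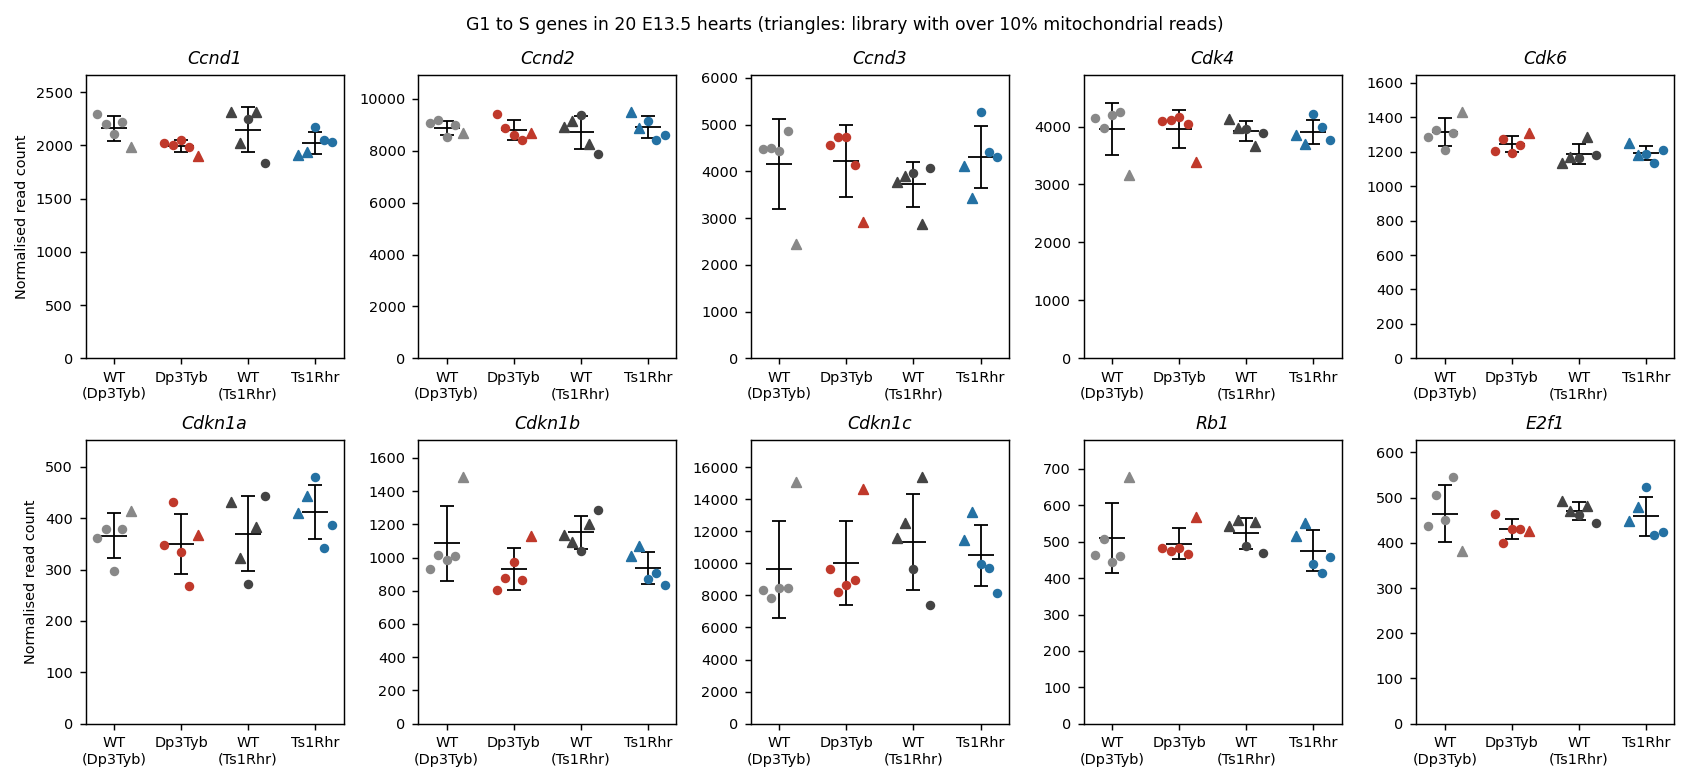
Normalised read count (vertical axis, from 0) of each of the 10 genes in each library by group, with the mean and SD of 5 libraries in black; triangles are libraries with over 10% mitochondrial reads. No gene separates mutant from WT hearts, and the triangles sit low for Ccnd3 and Cdk4 in the Dp3Tyb cohort and high for Cdkn1c and Rb1 in both cohorts.

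No transcript of the switch passed the test in either strain. In limma with Benjamini-Hochberg adjustment over all genes tested, 0 of the 10 passed in Dp3Tyb (0.0542% of 14763 genes did), 0 in Ts1Rhr (0.0269% of 14867), 0 in the mean of both strains (0.267% of 15348), 0 in the difference between the strains (0.013%) and 0 between the WT groups of the cohorts (0%). DESeq2 and edgeR on the reads recovered from the values also called 0 of the 10 in each of these 5 comparisons. At an unadjusted p under 0.05 the counts were 0 in Dp3Tyb (2.8% of all genes), 1 in Ts1Rhr (5.52%), 2 in the mean of both strains (8.19%), 0 in the difference (1.52%) and 1 between the WT groups (5.84%). No gene of the 10 had mutant and WT values without overlap in Dp3Tyb or in Ts1Rhr, where 0.975% and 1.12% of all genes did. The median log2 fold change of the 10 was -0.05 in Dp3Tyb, -0.02 in Ts1Rhr and -0.02 in the mean of both, beside 0.00 over all genes tested in each. The WT groups of Dp3Tyb and Ts1Rhr are shared with these comparisons, so the mean of both strains is no separate evidence. Dyrk1a, present in 3 copies, was itself not called by limma in either strain alone. Its log2 fold change was 0.46 ± 0.099 (SE) in Dp3Tyb (limma adjusted p = 0.478) and 0.38 ± 0.081 in Ts1Rhr (limma adjusted p = 0.415). The lack of a call in 1 strain thus does not show the lack of a change.

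**Figure D3:**
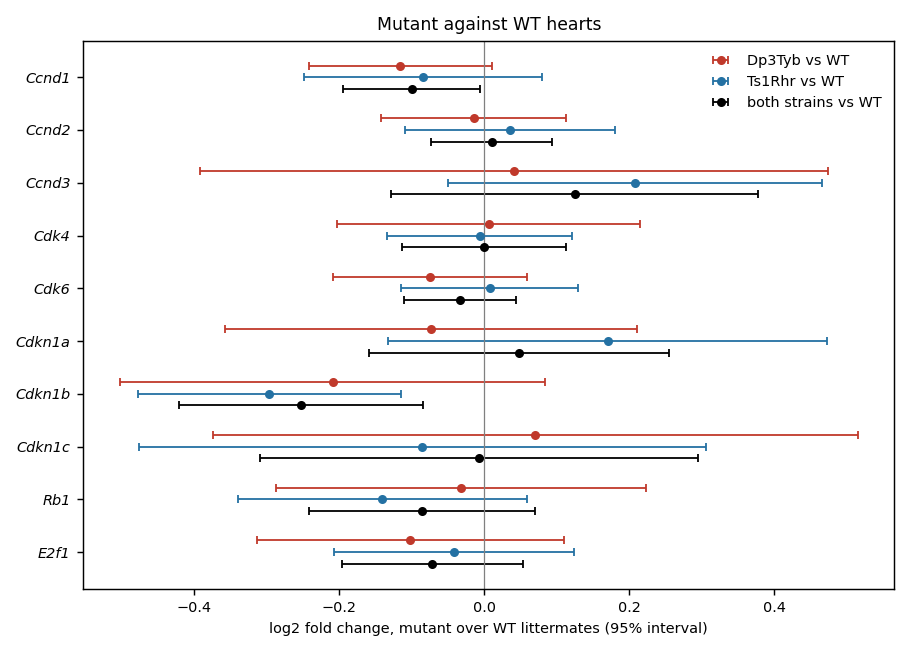
Log2 fold change of mutant over WT littermates (horizontal axis) with its 95% interval for the 10 genes in Dp3Tyb (red), Ts1Rhr (blue) and the mean of both strains (black). Cdkn1b has the lowest estimates, -0.21, -0.30 and -0.25, and the widest intervals belong to Ccnd3 and Cdkn1c in Dp3Tyb.

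Ccnd1, the cyclin most tied to mitogen signalling, had values of 2022, 1999, 2052, 1989 and 1898 in Dp3Tyb hearts and 2293, 2201, 2106, 2216 and 1985 in their littermates. In Ts1Rhr it had 1910.2, 1934, 2173, 2047 and 2035, and in the littermates 2316, 2023, 2247, 2318 and 1836. All 5 Dp3Tyb hearts and 4 of 5 Ts1Rhr hearts lay below the mean of their littermates, yet the groups overlapped in both cohorts. Its log2 fold change was -0.12 ± 0.057 (SE) in Dp3Tyb, -0.08 ± 0.075 in Ts1Rhr and -0.10 ± 0.045 in the mean of both (95% interval -0.19 to -0.0052, limma adjusted p = 0.588). Without the 7 libraries over 10% mitochondrial reads it was -0.13 ± 0.039 in Dp3Tyb, 0.04 ± 0.10 in Ts1Rhr and -0.05 ± 0.046 in the mean of both. Ccnd2, a close relative of Ccnd1, was the steadiest of the D cyclins. Its group means lay between 8708 and 8915, its log2 fold change was -0.01 ± 0.058 in Dp3Tyb and 0.04 ± 0.067 in Ts1Rhr, and the interval for both strains ran from -0.07 to 0.09. Ccnd3 gave 4559.9, 4726, 4744, 4145 and 2908 in Dp3Tyb against 4485, 4491, 4442, 4871 and 2452 in the littermates, where 1 heart of each group stood far below the rest. In Ts1Rhr it gave 4108, 3439, 5278, 4405 and 4298 against 3781, 3897, 3968, 2881 and 4066. Ccnd3, the third D cyclin gene, thus had wide intervals, -0.39 to 0.47 for Dp3Tyb and -0.05 to 0.47 for Ts1Rhr. Without the 7 libraries its log2 fold change was -0.01 ± 0.051 in Dp3Tyb and 0.21 ± 0.10 in Ts1Rhr, neither of which passed.

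Cdk4, the main D cyclin partner by level here, had group means of 3905 to 3956, and its log2 fold change was 0.01 ± 0.095 in Dp3Tyb and -0.01 ± 0.059 in Ts1Rhr, with an interval of -0.11 to 0.11 for both strains. Cdk6, its less abundant relative, was lower than the littermate mean in 5 of 5 Dp3Tyb hearts (1195 to 1309 against 1207 to 1433), by -0.07 ± 0.061, and differed by 0.01 ± 0.056 in Ts1Rhr. The largest contrast of Cdk6 was between the WT groups, where the littermates of Ts1Rhr (1186 ± 59.0, SD, n = 5) lay below those of Dp3Tyb (1311 ± 81.2) by -0.14 ± 0.052 on the log2 scale, which did not pass (limma adjusted p = 0.833). With array quality weights, where 21.5% of all genes were called in this contrast of the WT groups, Cdk6 (-0.15), Ccnd3 (-0.25) and Cdkn1c (0.42) were called (limma adjusted p of 0.0231, 0.0339 and 0.0200).

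Cdkn1b, which encodes p27, was the gene of the 10 that came closest to a call. Its values were 806, 879, 973, 868 and 1131 in Dp3Tyb and 933, 1013, 987, 1009 and 1486 in their littermates. They were 1007, 1067, 872, 909.8 and 837 in Ts1Rhr and 1137, 1091, 1038, 1202 and 1289 in the littermates. In Ts1Rhr all 5 hearts lay below the littermate mean and only 1 mutant heart exceeded the lowest littermate, and in Dp3Tyb 4 of 5 lay below with more overlap. The log2 fold change was -0.21 ± 0.13 (SE) in Dp3Tyb, -0.30 ± 0.083 in Ts1Rhr (95% interval -0.48 to -0.12, limma adjusted p = 0.795) and -0.25 ± 0.081 in the mean of both strains (-0.42 to -0.08, limma adjusted p = 0.298). The interaction term, 0.09 ± 0.16, did not pass, and its size was not stable. It was 0.21 ± 0.13 without replicate 5 of the WT littermates of Dp3Tyb, 0.015 ± 0.16 without replicate 5 of Dp3Tyb and 0.24 ± 0.11 without the 7 libraries (limma adjusted p = 0.999). Without any other single library it ranged from 0.038 to 0.14, and it was 0.034 with the covariate. It was called in the mean of both strains in 3 of the other settings: with the mitochondrial share as a covariate (-0.21 ± 0.047, adjusted p = 0.0180, with 1.95% of all genes called), without the 7 libraries over 10% (-0.28 ± 0.056, adjusted p = 0.0470, with 0.333%) and with array quality weights (-0.23 ± 0.047, adjusted p = 0.0088, with 4.6%). Without the 7 libraries it was -0.16 ± 0.056 in Dp3Tyb and -0.41 ± 0.11 in Ts1Rhr (limma adjusted p of 0.464 and 0.996). Leaving out each of the 20 libraries in turn gave no call (limma adjusted p of 0.157 to 0.509), and without replicate 5 of the WT littermates the estimate for Dp3Tyb was -0.09.

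Cdkn1c, which encodes p57 and is expressed from the maternal allele, had the largest spread of the 10. It gave 9621, 8212, 8661, 8933 and 14648 in Dp3Tyb and 8318, 7850.4, 8432, 8463 and 15056 in the littermates. In Ts1Rhr it gave 11480.4, 13188, 9946, 9688 and 8145 and in the littermates 11569, 12543, 9639, 15392 and 7423. One heart in each Dp3Tyb group lay far above the rest, and the Ts1Rhr cohort was scattered in both groups. The log2 fold change was 0.07 ± 0.20 in Dp3Tyb and -0.09 ± 0.18 in Ts1Rhr, with intervals of -0.37 to 0.52 and -0.48 to 0.31. Without the 7 libraries it was 0.10 ± 0.052 in Dp3Tyb and 0.12 ± 0.13 in Ts1Rhr, so the sign in Ts1Rhr depends on them. Cdkn1a, the p53-responsive inhibitor p21, ranged from 268 to 480.4 over the 20 hearts, with -0.07 ± 0.13 in Dp3Tyb and 0.17 ± 0.14 in Ts1Rhr, and the difference of -0.24 ± 0.20 between the strains did not pass.

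Rb1 gave 466 to 569 in Dp3Tyb against 444 to 678 in the littermates (-0.03 ± 0.12), and 415 to 552 in Ts1Rhr against 468 to 561 (-0.14 ± 0.091). E2f1 gave 401 to 463 in Dp3Tyb against 382 to 546 (-0.10 ± 0.096), with all 5 mutant hearts below the littermate mean, and 417 to 524 in Ts1Rhr against 444 to 493 (-0.04 ± 0.076). Rb1 encodes the brake on E2F factors and E2f1 an activator among them, and the groups overlapped for both in each cohort.

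Hearts of 1 genotype differed most in Cdkn1c and Ccnd3. The within-group SD of log2(value + 1) was 0.35 for Cdkn1c and 0.29 for Ccnd3, at the 91.0th and 87.8th percentile among the 500 tested genes nearest in mean level. At the other end Cdk6 had 0.068 (7.6th percentile), Ccnd2 0.074 (11.2th) and Ccnd1 0.094 (22nd). Counting error alone gives 0.015 for Cdkn1c and 0.042 for Cdk6, so the spread of Cdkn1c was 24.2 times its counting error and that of Cdk6 1.61 times.

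Cdkn1c and Ccnd3, the genes of widest spread, moved with the share. The shares fell into separate stretches, 4.85 to 7.17% and 10.5 to 19.5%, so no pooled coefficient is given and the values are set side by side. Cdkn1c had 8718 ± 790 (SD, n = 13) in the libraries with at most 10% and 13411 ± 1637 (n = 7) in those with more, with no overlap (7423 to 9946 against 11480.4 to 15392). Rb1 had 466 ± 23.6 and 568 ± 51.8, again with no overlap (415 to 507 against 515 to 678). Both held within each cohort. Values did not overlap between these libraries in 14.8% of all genes, so 2 of 10 is close to that background. Ccnd3 lay lower in the libraries with more mitochondrial reads (3352 ± 618 against 4498 ± 354), as did Cdk4 (3695 ± 333 against 4061 ± 143), and Cdkn1b lay higher (1160.2 ± 156 against 955 ± 124), in each case with overlap. In the Dp3Tyb cohort, with 2 libraries over 10%, Cdk4 had 3276 against 4123 and Cdkn1b 1309 against 934, with no overlap. In this split of 2 against 8 libraries 51.1% of all genes did not overlap. Of the 10, 6 did not (Ccnd1, Ccnd3, Cdk4, Cdkn1b, Cdkn1c and Rb1), which is close to that background. In the Ts1Rhr cohort, with 5 such libraries, Cdk4 had 3863 ± 194 against 3963 ± 166 and Cdkn1b 1101 ± 73.4 against 989 ± 184, less than the larger SD apart, and Cdkn1c and Rb1 were the 2 of 10 without overlap, beside 19.3% of all genes. Ccnd3 had 2679.6 against 4558 in the first and 3621 ± 479.7 against 4403 ± 519 in the second. Over all 20 libraries Ccnd1, Ccnd2, Cdk6, Cdkn1a and E2f1 had means that differed by less than the larger SD. In the Dp3Tyb cohort alone the gaps were larger than that for Ccnd1 (1941 against 2109.6 ± 114), Cdk6 (1371 ± 87.5 against 1254) and E2f1 (404 against 458 ± 46.8).

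**Figure D4:**
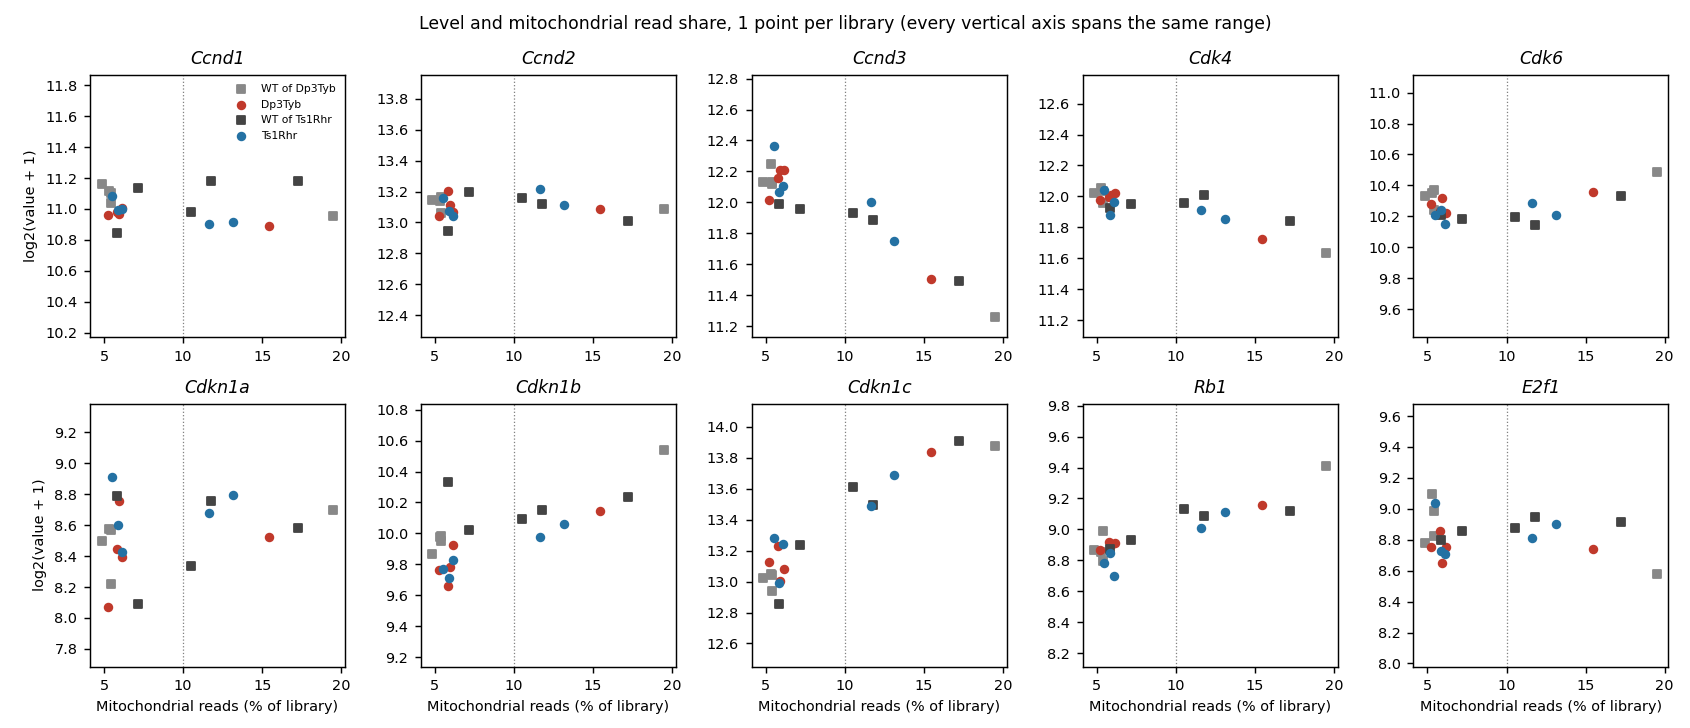
Log2(value + 1) of each of the 10 genes (vertical axis, 1.7 log2 units in every panel) against the mitochondrial read share in % (horizontal axis), 1 point per library, with a dotted line at 10%. Cdkn1c and Rb1 lie higher and Ccnd3 lower to the right of the line, and the mean of Ccnd2 is 8809 to the left and 8864 to the right.

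Within the 7 libraries over 10%, Ccnd3 followed the share most closely (Pearson's r = -0.97, Spearman's rho = -0.96, exact permutation test, adjusted p = 0.0099 and 0.0278 over the 10 genes). Cdkn1c (r = 0.88), Cdk6 (r = 0.88), Cdk4 (r = -0.87), Cdkn1b (r = 0.85) and Rb1 (r = 0.76) also passed by r in exact permutation tests, with adjusted p of 0.0278, 0.0238, 0.0238, 0.0238 and 0.0496, and not by rho (rho of 0.86, 0.79, -0.86, 0.75 and 0.57, adjusted p of 0.0595, 0.0960, 0.0595, 0.110 and 0.286). Ccnd2 passed by rho (-0.93, adjusted p = 0.0337) and not by r (-0.74, adjusted p = 0.0726) in the same exact test. Without the 2 libraries farthest from the median share, r over the remaining 5 was -0.94 for Ccnd3, 0.82 for Cdkn1c, 0.70 for Cdk6, -0.91 for Cdk4, 0.35 for Cdkn1b and 0.45 for Rb1, so the relation of Cdkn1b and Rb1 rests on those libraries. Within the 13 libraries at or under 10% none of the 10 passed by the permutation test, and the strongest was Cdk6 (r = -0.63, rho = -0.66, adjusted p = 0.179 and 0.175). All genes tested had a median absolute r of 0.60 within the 7 libraries, and among them the absolute r of Ccnd3 stood at the 98.1st percentile. Those of Cdkn1c, Cdk6 and Cdk4 stood at the 84.0th, 83.8th and 82.6th. Those of Cdkn1b and Rb1 stood at the 78.8th and 67.9th, so relations of this size with the share were common among all genes. Library depth moved with the share there (r = -0.88 with total reads, exact permutation p = 0.0091), and its part in these relations was not tested. The 7 libraries were permuted together although they come from both cohorts. The 2 of the Dp3Tyb cohort had shares of 15.5 and 19.5%, and the 5 of the Ts1Rhr cohort 10.5 to 17.2%. Cdk6 was 1309 and 1433 in the former and 1132 to 1286 in the latter. The part of the cohort in these relations was not tested.

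After the group means were removed, Ccnd3 and Cdk4 varied together over the 20 libraries (r = 0.95), as did Cdkn1c and Rb1 (r = 0.85) and Cdkn1b and Rb1 (r = 0.76), while Ccnd3 ran against Cdkn1c (r = -0.85). All 20 libraries share the pattern of mitochondrial share and depth, which was not removed. Of all 15348 genes tested, 59.1% had an absolute r of at least 0.5 with the share. The partners named next are those with the highest r among all these genes. Whether any pair varied together apart from the share was not tested. Outside the 10, the gene most like Ccnd3 was Mcrs1 (r = 0.995), followed by Mtfr1l and Rnf187 (both 0.99). Cdk4 was most like H2ax (0.97), Thop1 (0.96) and Naa12 (0.95). Cdkn1c was most like Ckap2l, Ranbp1 and Meis2 (0.98 each), Rb1 most like Nemf, Lyrm7 and Zcrb1 (0.95 each) and Cdkn1b most like Hsdl2 (0.96), Arhgap10 and Nampt (0.94 each). For the other 5 genes the closest partners had r of at most 0.88: Ccnd2 with Abcf2 (0.88), Dusp16 and Zbed4 (0.84 each), Cdk6 with Elk4 (0.86), Strn (0.85) and Slc39a13 (0.84), E2f1 with Nacc1 (0.83), Tmem138 (0.81) and Rgs3 (0.79), Cdkn1a with Ncbp2as2 (0.80), Iqsec2 (0.78) and Cdh13 (0.76), and Ccnd1 with Arid5a, Nppb (0.78 each) and Slc35e1 (0.77).

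Of 25 E2F target genes of S phase entry, 24 were lower in Dp3Tyb (median log2 fold change -0.15), 23 in Ts1Rhr (-0.10) and 24 in the mean of both (-0.13), beside 51.1, 50.4 and 49.2% of all genes tested and medians of 0.00. In limma 0 passed the adjusted test in these comparisons, and at an unadjusted p under 0.05 the counts were 8 in Dp3Tyb (2.8% of all genes), 3 in Ts1Rhr (5.52%) and 12 in the mean of both strains (8.19%). Between the WT groups 15 of 25 were lower. These lists were assembled with earlier results of these data known. Uhrf1, a replication-linked chromatin factor gene, was -0.15 ± 0.038 in the mean of both strains (limma adjusted p = 0.142), Mybl2, a B-Myb transcription factor gene, -0.19 ± 0.050 (adjusted p = 0.167) and Tyms, the thymidylate synthase gene, -0.16 ± 0.043 (adjusted p = 0.182). Their calls in the mean of both strains depended on the setting. DESeq2, which called 0.847% of all genes, called Uhrf1 (adjusted p = 0.0123) and Mybl2 (0.0465). The limma fits with the mitochondrial covariate (0.0226, 0.0343 and 0.0228, with 1.95% of all genes called) and with array quality weights (0.0034, 0.0036 and 0.0405, with 4.6%) called all 3. None of the 3 was called by edgeR (adjusted p of 0.144, 0.178 and 0.187), after quantile normalisation (0.264, 0.194 and 0.210), with no filter (0.315, 0.343 and 0.385) or without the 7 libraries (-0.12, -0.16 and -0.11, adjusted p of 0.341, 0.320 and 0.404). Of 25 other G1 to S regulators 23 were tested, and 18 were lower in Dp3Tyb, 16 in Ts1Rhr and 17 in the mean of both. Rbl1, which encodes the pocket protein p107, fell by 0.22 on the log2 scale in the mean of both strains (SE 0.044, limma adjusted p = 0.0287). It was also called by DESeq2 (adjusted p = 0.00017), by edgeR (0.0252) and by limma with 0.1 added to the values instead of 1 (0.0279). The limma call did not survive the removal of 1 library in 11 of 20 cases (adjusted p up to 0.0749). Nor did it survive the fit without the filter on low values (adjusted p = 0.0861). The means of Rbl1 were 776 ± 26.0 in Dp3Tyb against 916 ± 63.0, and 775 ± 57.6 in Ts1Rhr against 893 ± 54.4 (SD, n = 5 each). Cdkn2c, the p18 inhibitor gene, had -0.32 ± 0.086 (adjusted p = 0.173) and E2f7, a repressor E2F gene, -0.23 ± 0.068 (adjusted p = 0.255). Cdkn2c was called by DESeq2 (adjusted p = 0.0389), with the covariate (0.0158) and with array weights (0.0087), and E2f7 with the covariate (0.0061) and with array weights (0.0022). Neither was called by edgeR (0.163 and 0.235), after quantile normalisation (0.120 and 0.323), with no filter (0.295 and 0.436) or without the 7 libraries (0.105 and 0.195). Among 7 kinases and ligase adaptors that act on D cyclins, Dyrk1a rose by 0.42 ± 0.065 (adjusted p = 0.0027), while its relative Dyrk1b had -0.25 ± 0.081 (adjusted p = 0.299, but 0.0221 with the covariate and 0.0244 with array weights, and 0.178 without the 7 libraries) and Fbxo31, a ligase adaptor gene, 0.18 ± 0.14 (adjusted p = 0.831).

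Of 12 p53 pathway genes, 7 were higher and 5 lower in the mean of both strains, with 0 calls; Trp53inp1 had -0.13 ± 0.051 (limma adjusted p = 0.470), Pmaip1 -0.31 ± 0.15 (adjusted p = 0.598) and Zmat3 0.07 ± 0.049 (adjusted p = 0.784). Of 10 imprinted genes, the class to which Cdkn1c belongs, 9 were tested and 3 were higher and 6 lower, with 0 calls; Mest had 0.13 ± 0.066 (adjusted p = 0.632), Grb10 -0.07 ± 0.034 (adjusted p = 0.641) and Meg3 0.13 ± 0.078 (adjusted p = 0.722). Among markers of other cells 0 genes of any list passed the adjusted limma test in these comparisons, and directions are given as counts. All 9 tested lung and foregut genes had log2 fold changes above 0 in Dp3Tyb (median 1.93) and below 0 in Ts1Rhr (-1.76). Of the neural crest and Schwann genes 5 of 5 tested lay above 0 in Dp3Tyb (0.65) and 5 of 6 below 0 in Ts1Rhr (-0.53). All 9 macrophage genes lay above 0 in the mean of both strains (0.28), 4 of them with an unadjusted limma p under 0.05, beside 8.19% of all genes. All 10 fibroblast and valve mesenchyme genes lay above 0 in Dp3Tyb (0.15) and in the mean of both strains (0.11), and 8 of 10 in Ts1Rhr (0.058). All 10 also lay above 0 in the WT littermates of Ts1Rhr over those of Dp3Tyb (0.077). In that contrast of the WT groups all 10 erythroid genes lay above 0 (0.99), 9 of them with an unadjusted limma p under 0.05, beside 5.84% of all genes. In the mean of both strains 9 of 10 erythroid genes lay above 0 (0.22), 0 of them with an unadjusted limma p under 0.05. The part of any of these cell types in the values of the 10 genes was not tested.

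In GRCm38 the genes lie at chr7:144929931-144939831 (Ccnd1), chr6:127125162-127152188 (Ccnd2), chr17:47505051-47599689 (Ccnd3), chr10:127063535-127067288 (Cdk4), chr5:3341004-3531008 (Cdk6), chr17:29090979-29100722 (Cdkn1a), chr6:134920401-134925525 (Cdkn1b), chr7:143458339-143461059 (Cdkn1c), chr14:73192858-73325951 (Rb1) and chr2:154559400-154569892 (E2f1), none of them on chromosome 16. In the GENCODE annotation the exons of Ccnd1 share 48.4% of their bases with LTO1 on the opposite strand, those of Cdkn1c 29.0% with Gm44732 and those of Cdk4 18.8% with Tspan31. Whether reads were counted by strand is not given in the sources used here, and the values of these partners reached 278, 376 and 955. The E2F site TTTCGCGC or TTTGGCGC, on either strand, was looked for from 250 bases before to 50 after the RefSeq start sites (GRCm38.p6). It was absent from all 8 windows of the 6 members that had one (Ccnd3, Cdk4, Cdk6, Cdkn1a, Cdkn1b, E2f1), of which 4 belong to starts inside the gene, 466 bases for E2f1, 2889 for Cdk6, 2790.0 for the second start of Cdkn1a and 88416 for that of Ccnd3. Of 32851 windows, 0.81% held a match, and 8 of the 22 E2F target genes with a window did, against 0.93% of all 27025 genes.

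The 250 bases before the start are shown for Cdkn1b, the member closest to a call (chr6:134920151-134920400, plus strand, no match), and for the E2F targets with a match there and the smallest p, Uhrf1 (chr17:56304063-56304312, plus strand) and Pola1 (chrX:93632156-93632405, minus strand), each 5′ to 3′ with matches in capitals. The bases are from RefSeq.
Cdkn1b: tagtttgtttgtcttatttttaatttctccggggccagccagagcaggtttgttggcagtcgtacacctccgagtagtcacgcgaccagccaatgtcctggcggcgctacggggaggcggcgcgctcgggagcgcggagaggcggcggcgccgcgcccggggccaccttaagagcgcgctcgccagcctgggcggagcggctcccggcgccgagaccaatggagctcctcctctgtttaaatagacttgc
Uhrf1: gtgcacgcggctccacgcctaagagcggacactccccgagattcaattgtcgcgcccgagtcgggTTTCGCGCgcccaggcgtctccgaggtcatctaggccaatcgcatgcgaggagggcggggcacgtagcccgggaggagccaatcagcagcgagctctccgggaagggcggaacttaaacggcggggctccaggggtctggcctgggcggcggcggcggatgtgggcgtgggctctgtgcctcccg
Pola1: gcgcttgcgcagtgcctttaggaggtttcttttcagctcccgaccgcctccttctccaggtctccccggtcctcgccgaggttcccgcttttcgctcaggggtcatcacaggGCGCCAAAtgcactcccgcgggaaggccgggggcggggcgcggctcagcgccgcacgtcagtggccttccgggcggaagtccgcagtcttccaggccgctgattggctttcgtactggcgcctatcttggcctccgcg
The match begins at position -185 in Uhrf1 and -138 in Pola1, counted from the start site.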

How the data were processed

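Poly(A) RNAseq of 20 E13.5 mouse hearts in 4 groups of 5 was analysed. The authors deposited normalised values, a signal in which whole reads are divided by 1 size factor per library. In every library 100% of the values above 0 were whole multiples of 1 step (relative tolerance 1e-06), so reads were recovered. Per the submitters' processing notes, Trimmomatic 0.36, STAR 2.5.2a, RSEM 1.2.31, DESeq and DESeq2 were used with GRCm38. Library depth was 6.60 to 19.6 M reads, and counts of PCR products carry more error than counting gives. Ensembl identifiers were matched to GENCODE symbols for 44565 of 48795 genes (91.3%), and all 10 genes matched.

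The main test was limma 3.58.1 (R 4.3.3) on log2(value + 1), robust and trended, 2-sided, with Benjamini-Hochberg adjustment at 0.05 over genes whose value reached 10 in 5 or more of the libraries fitted. Each strain was fitted with its littermates, and all 20 libraries were fitted for the difference, the mean of both strains and the WT groups. DESeq2 1.42.0 and edgeR 4.0.16 were run on recovered reads. Scripts were tested on simulated data. Groups came from genotype labels, where the controls carry only the initial of a strain and were read as its WT littermates, and nothing says that hearts of a group came from separate litters, so p-values measure the spread between these hearts. The 40 replicate pairs differed by more than counting error. The 10 genes are those listed for the switch, and members and lists were chosen with earlier results of these data known. Named list genes passed the adjusted test or had the 3 smallest p in their list for both strains. Correlations used 100000 permutations, or every ordering below 10 libraries. Protein sequences were not used here.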

Additional observations from a re-analysis of the deposited data

Results flagged for a closer look

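In 11 of 48 groups of 5 libraries examined, over the 10 genes, the mitochondrial share and total reads, 1 library stood apart by Dixon's test. Chance alone gives about 1 in 20 for a single group. The 48 groups reuse the same 20 libraries, so the 11 are not separate events. Among the WT littermates of Dp3Tyb it was replicate 5 each time, with the lowest Ccnd3 (2452) and Cdk4 (3171) and the highest Cdkn1b (1486), Cdkn1c (15056), Rb1 (678) and mitochondrial share (19.5%). Among Dp3Tyb hearts it was also replicate 5, with the lowest Cdk4 (3380.4) and the highest Cdkn1c (14648), Rb1 (569) and mitochondrial share (15.5%). Among the WT littermates of Ts1Rhr it was replicate 4, with the lowest Ccnd3 (2881), a mitochondrial share of 17.2% and 9.50 M reads. No group of Ts1Rhr hearts had a library apart. These 3 libraries hold the 3 highest mitochondrial shares and include the 2 lowest read totals of the 20, and the part of either in these values was not tested.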

How the results depend on the processing

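The log2 fold changes of the 10 genes and of 15 named list genes kept their sign and their side of the threshold in 1569 of the refits, turned sign in 102, gained a call in 22 and lost one in 12. No call of a member turned sign, since none was made. The number of members called was 1 instead of 0 in the mean of both strains (below, both strains) with array quality weights, with the mitochondrial share as a covariate and without the 7 libraries over 10% (Cdkn1b each time), and 3 in the WT groups with array quality weights. The sign turned by DESeq2 for Cdk4 (-3.8e-05) in Dp3Tyb, for E2f1 (-0.0057) in the WT groups. The sign turned with array quality weights for Cdk4 (-0.0072), Cdkn1a (0.015) and Rb1 (0.014) in Dp3Tyb, for Ccnd2 (-0.048) in Ts1Rhr, for Ccnd2 (0.028) in the difference between strains, for Ccnd2 (-0.031) in both strains, for Ccnd2 (0.0016), Cdkn1a (-0.043) and E2f1 (-0.056) in the WT groups. The sign turned with the mitochondrial share as a covariate for Cdk4 (-0.0045) in Dp3Tyb, for Cdkn1c (0.070) in Ts1Rhr, for Cdkn1c (0.076) in both strains, for Ccnd3 (0.0091), Cdk4 (0.047), Cdkn1a (-0.033) and Rb1 (-0.031) in the WT groups. The sign turned after quantile normalisation for Ccnd2 (0.0088) in Dp3Tyb, for Cdk4 (0.031) in Ts1Rhr, for Cdk4 (-0.0014) in the difference between strains, for Cdk4 (0.031) and Cdkn1c (0.0054) in both strains. The sign turned without the 7 libraries over 10% mitochondrial reads for Ccnd3 (-0.010), Cdk4 (-0.016) and Rb1 (0.023) in Dp3Tyb, for Ccnd1 (0.037), Cdk4 (0.024) and Cdkn1c (0.12) in Ts1Rhr, for Cdk4 (-0.039) and Cdkn1c (-0.027) in the difference between strains, for Cdk4 (0.0042) and Cdkn1c (0.11) in both strains, for Cdkn1a (-0.024) and E2f1 (-0.093) in the WT groups. Leaving out 1 library at a time turned the sign of Ccnd2 (-0.039 to 0.00074), Ccnd3 (-0.14 to 0.17), Cdk4 (-0.071 to 0.062), Cdkn1a (-0.15 to 0.018), Cdkn1c (-0.075 to 0.24) and Rb1 (-0.083 to 0.074) in Dp3Tyb, of Cdk4 (-0.034 to 0.013), Cdk6 (-0.0092 to 0.037) and Cdkn1c (-0.23 to 0.036) in Ts1Rhr, of Ccnd1 (-0.061 to 0.024), Cdk4 (-0.065 to 0.068) and E2f1 (-0.13 to 0.00067) in the difference between strains, of Ccnd2 (-0.0072 to 0.024), Cdk4 (-0.039 to 0.028), Cdkn1a (-0.0044 to 0.094) and Cdkn1c (-0.080 to 0.079) in both strains, of Ccnd1 (-0.042 to 0.043), Ccnd2 (-0.059 to 0.0033), Cdk4 (-0.081 to 0.025), Cdkn1a (-0.073 to 0.11) and E2f1 (-0.040 to 0.089) in the WT groups. Rbl1 in both strains ranged from -0.23 to -0.20 and Mybl2 from -0.22 to -0.16. The cause of these turns was not tested.

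The mitochondrial share of Dp3Tyb minus littermates ranged from -2.32 to 2.47 percentage points when 1 library was left out, and was 0.044 on the log2 scale. Over all 20 libraries pooled, which mixes the separate stretches of the share, 5 of the 10 genes passed the permutation test for r. Their absolute r was 0.74 to 0.94. Of all genes, 59.1% had an absolute r of at least 0.5 and 39.9% of at least 0.7. The share of all genes that would pass was not computed in any of the settings below, so these counts are no result about the 10. The count passing by r was 6 on deviations from group means, 6 within the Dp3Tyb cohort, 3 within the Ts1Rhr cohort, 4 without the 2 libraries farthest from the median, 6 in the 7 libraries over 10%, 8 per M non-mitochondrial reads and 0 in the 13 libraries at or under 10%. By rho in these settings it was 5 pooled, 5 on deviations, 0 within the Dp3Tyb cohort, 3 within the Ts1Rhr cohort, 4 without the 2 farthest, 2 in the 7 libraries, 9 per M non-mitochondrial reads and 0 in the 13. The Dp3Tyb cohort has 2 libraries far above the rest in share, and there Ccnd3 had r = -0.97 but rho = -0.21. Against the pooled sign, r turned for Ccnd1 (0.29), Ccnd2 (0.045) and E2f1 (0.35) within the Ts1Rhr cohort, for Ccnd2 (0.17), Cdk6 (-0.079) and E2f1 (0.0035) without the 2 libraries farthest from the median share, for Cdk6 (-0.32) per M non-mitochondrial reads, for Ccnd2 (0.079), Cdk6 (-0.63) and Cdkn1a (-0.23) within libraries with at most 10% mitochondrial reads, for Ccnd1 (0.059) within libraries with over 10% mitochondrial reads. The correlations within libraries on either side of 10% and the lengths of the longest transcripts were chosen after seeing the data.

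Over all genes the calls in both strains were 41, against 130 by DESeq2, 706 with array quality weights and 300 with the covariate. In Dp3Tyb they were 8, against 34 by DESeq2, 57 with array weights, 45 with the covariate, 30 without the 7 libraries, 17 in a fit of all 20 libraries and 4 with no filter. In Ts1Rhr they were 4, against 25, 16, 25, 0 and 11 in the first 5 of these settings. Leaving out 1 library gave 2 to 13 calls in Dp3Tyb, with 13 without replicate 5 of the WT littermates, 6 without replicate 5 of Dp3Tyb and 2 to 4 without any of the others. In Ts1Rhr it gave 1 to 6, with 6 without WT replicate 5, 4 without Ts1Rhr replicate 2 or 3 and 1 or 2 without any of the others, and it gave 31 to 49 in both strains, 0 to 3 in the difference and 0 to 2 in the WT groups. The difference between strains gave 2, against 0 with no filter. The WT groups gave 0, against 6 by DESeq2, 3297 with array weights and 3 with the covariate. No setting moved the median log2 fold change of all genes by over 0.1. No paired analysis was made, because nothing in the labels ties a control to a mutant and the replicate numbers only follow the order of the samples. The library with the highest mitochondrial share also had the lowest depth, 6.60 M reads, and the effect of depth was not tested.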
